A study of Mus musculus with 12 samples.

Results

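The interval chr1:192900000-194000000 of the mouse genome (build mm9) holds the genes of the transcription factors Atf3 and Batf3 near its lower end, and 9 regions bound by Nrf2 in at least 1 library. It was chosen by its number of peaks, as a stretch dense in them, so the number of peaks in it is described and not tested. Every peak that overlapped the interval in any of 6 deposited peak lists was taken. There were 30 such peaks of 8644 in all, and they merged into 9 of 4147 regions. Nrf2 binding had been mapped by chromatin immunoprecipitation and sequencing (ChIP-seq) in peritoneal macrophages of mice aged 7 to 8 weeks. The cells had been drawn into the abdominal cavity with 4% thioglycolate broth, collected 4 days later, and treated in culture with 100 µM diethyl maleate, an electrophile, for 4 hours. Wild type (WT) cells had an unaltered Nrf2, and Nrf2(AY/AY) cells, called AY here, were homozygous for the AY allele of Nrf2. Each genotype had 3 ChIP libraries, and both genotypes had received the same thioglycolate and diethyl maleate, so no untreated cells enter the comparison. Peak lists measure no expression, so the labelled cell type was not checked against markers.

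Nrf2 is a basic leucine zipper protein that is degraded in resting cells and accumulates when electrophiles modify its inhibitor Keap1. It then binds DNA together with a small Maf protein at antioxidant response elements and switches on genes of detoxification and glutathione metabolism. Atf3 is another basic leucine zipper factor, induced quickly by many stresses, and is known in macrophages as a repressor of inflammatory cytokine genes. Batf3, of the related AP-1 family, is known for its part in the development of cross-presenting dendritic cells. The AY allele is known as a change of alanine to tyrosine in the part of Nrf2 that contacts DNA, and the study compared where the altered and the normal protein sit on chromatin.

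Within the interval, none of the 6 lists had a peak at the Atf3 position or on the Batf3 side of it. That position, 193007000, from which all distances are counted, came with the choice of the interval and is approximate. The 107 kb of the interval below it, the side on which the gene order places Batf3, held no peak in any library, and the nearest peak above it began 14.5 kb away. The name of the interval therefore describes its neighbourhood and not a peak at Atf3 or Batf3. At higher coordinates, 3, 3 and 2 peaks of WT replicates 1, 2 and 3 and 1 peak of each AY library lay within 50 kb of the Atf3 position. No peak of the interval lay at that position or on the Batf3 side of it. For that reason the RefSeq promoters of both genes are shown, as the stretches that a reader would look to first. They run from 250 bases before to 50 after the annotated start. They are read on build GRCm38.p6, whose coordinates cannot be set beside those of the peaks, and capitals mark matches to a searched motif:
Atf3 (GRCm38.p6, chr1:191183284-191183583, minus strand): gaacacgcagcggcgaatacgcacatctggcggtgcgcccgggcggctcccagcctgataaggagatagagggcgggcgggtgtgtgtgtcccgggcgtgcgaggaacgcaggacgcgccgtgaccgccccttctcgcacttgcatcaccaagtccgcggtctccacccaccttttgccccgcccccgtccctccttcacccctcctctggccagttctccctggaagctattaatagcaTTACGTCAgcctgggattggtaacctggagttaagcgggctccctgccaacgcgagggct
Batf3 (GRCm38.p6, chr1:191098164-191098463, plus strand): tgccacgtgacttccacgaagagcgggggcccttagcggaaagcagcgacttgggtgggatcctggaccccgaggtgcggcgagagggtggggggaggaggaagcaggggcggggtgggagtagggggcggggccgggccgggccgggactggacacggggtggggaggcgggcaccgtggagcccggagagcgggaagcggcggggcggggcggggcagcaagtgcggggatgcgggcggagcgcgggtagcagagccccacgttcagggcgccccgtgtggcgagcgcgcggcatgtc

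The promoters were searched on both strands for the core of the antioxidant response element (TGACNNNGC), the AP-1 site (TGANTCA) and the cyclic AMP response element (TGACGTCA). Neither promoter held any of these letters, which occur in 12.4%, 7.81% and 1.79% of 32851 RefSeq promoters of the same length. A form of the last motif with a free second base (TNACGTCA), searched after the sequences had been read and overlapping it, matched 1 time, as TTACGTCA at bases 241 to 248 of the Atf3 promoter, and is found in 2.93% of promoters. The match is a description of the letters, and the search says nothing on which factors bind there. The Batf3 promoter was the richer of the pair in G and C, with 75.7% against 64.7% for Atf3 and a median of 52.7% over all promoters. The sequences under the 9 bound regions were not analysed here.

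The libraries differed in the length of their lists. Values of a genotype are given throughout in the order of replicates 1, 2 and 3. The WT lists ran to 1604, 826 and 1533 peaks, the AY lists to 2154, 1441 and 1086. The authors' peak caller gave each peak a score, which moves with read depth, so scores are compared as ranks within a list and as that rank in percent of the list, where small values are the strongest peaks. Read depth is unknown, and no list holds a score under 50, so an absent peak means only that a site did not reach that score in that library. Two-sided exact permutation tests of 3 against 3 libraries cannot give a p below 0.1, and 10 were made here. Separate animals are not named as the source of the replicates, so a p-value speaks only of variation among the libraries at hand, some of which may be technical. WT replicates 1 and 3 had no peak on the Y chromosome, whereas WT replicate 2 had 18 and the AY libraries 15 to 27, and the part of this in the results on the interval was not tested.

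Nrf2 peaks were more numerous in the WT than in the AY libraries over the interval. There were 7, 7 and 5 peaks in the WT libraries against 5, 3 and 3 in the AY libraries. The highest AY count thus equalled the lowest WT count. A WT library held 6.33 ± 1.15 peaks on average and an AY library 3.67 ± 1.15 (SD, n = 3). As a share of the list, the interval held 0.436%, 0.847% and 0.326% of the WT peaks and 0.232%, 0.208% and 0.276% of the AY peaks. The groups did not overlap in this share, and the difference of -0.298 percentage points (AY minus WT) shrank to -0.142 without WT replicate 2, whose list is the shortest. The share rests on the number of peaks that chose the interval, so it was not tested. How often other windows separate the genotypes in it is not given here.

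**Figure D1:**
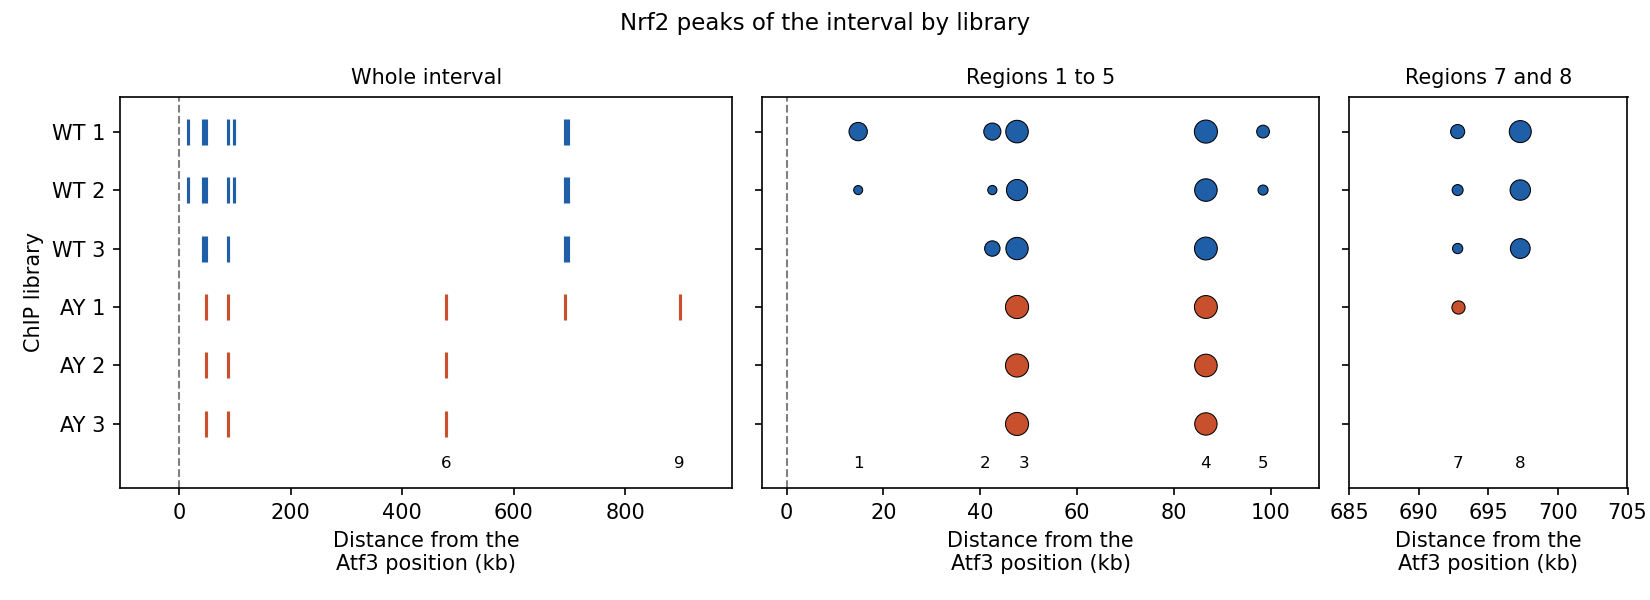
Peaks of each ChIP library (rows, WT in blue and AY in orange) by the distance of their region's centre from the Atf3 position in kb (dashed line), for the whole interval and enlarged for regions 1 to 5 and regions 7 and 8, where larger circles are peaks of higher rank within their list. All 9 regions lie on the higher-coordinate side of Atf3, and regions 3 and 4 have a mark in all 6 rows.

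All 9 regions lay at higher coordinates than Atf3, and 5 of them within 100 kb of it. They are numbered 1 to 9 with growing distance. Regions 1 to 5 began 14.5, 42.1, 47.0, 85.9 and 98.1 kb from the Atf3 position. A gap of 379 kb followed, and regions 6, 7, 8 and 9 began at 477.7, 692.5, 696.9 and 897.9 kb. The members of each of 2 pairs were close, with 4.19 kb between regions 2 and 3 and 3.77 kb between regions 7 and 8. The first 10 protein-coding genes that follow Atf3 in this direction are, in order, Nenf (a secreted factor), Pacc1 (a proton-activated chloride channel), Ppp2r5a (a regulatory subunit of protein phosphatase 2A), Dtl (a substrate receptor of a ubiquitin ligase), Ints7, Lpgat1, Nek2, Slc30a1 (a zinc exporter), Rd3 and Traf5 (an adaptor of tumour necrosis factor receptors). The order is that of GRCm38, and no region is assigned to any of these genes, since no gene positions on mm9 were used.

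No peak lay across an edge of the interval. The next region below it, chr1:192734057-192734629, lay 165 kb outside and was held by WT replicates 1 and 2 at ranks 850 and 774. The next above, chr1:195731902-195732264, lay 1732 kb outside and was held by WT replicate 3 at rank 1308. Among 1531 windows of 1.1 Mb with at least 1 region, the median was 2 regions and 4 peaks, and 41 windows had 9 or more regions, this interval included. Windows with 30 or more peaks numbered 15. The interval is thus in the upper part of the distribution by the measure that chose it, and far from the highest, 56 regions and 68 peaks in a window.

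Regions 3 and 4 were bound in all 6 libraries and held the strongest peaks of the interval in each of them. Region 3, chr1:193054043-193055077, held ranks 58, 87 and 73 in the WT lists against 16, 13 and 13 in the AY lists. It was the best-ranked region of the interval in every AY list. Region 4, chr1:193092938-193094194, held ranks 18, 31 and 34 in the WT lists against 41, 49 and 50 in the AY lists. It was the best-ranked in every WT list, so the first place went to a different region in each genotype. Regions held by all 6 libraries are 4.87% of all merged regions, and among those 202, region 4 stood at place 12 and region 3 at place 15 by mean relative rank. Their means over the 6 libraries were 2.83% and 3.63% of the list, where the median of the 202 was 21.9%.

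**Figure D2:**
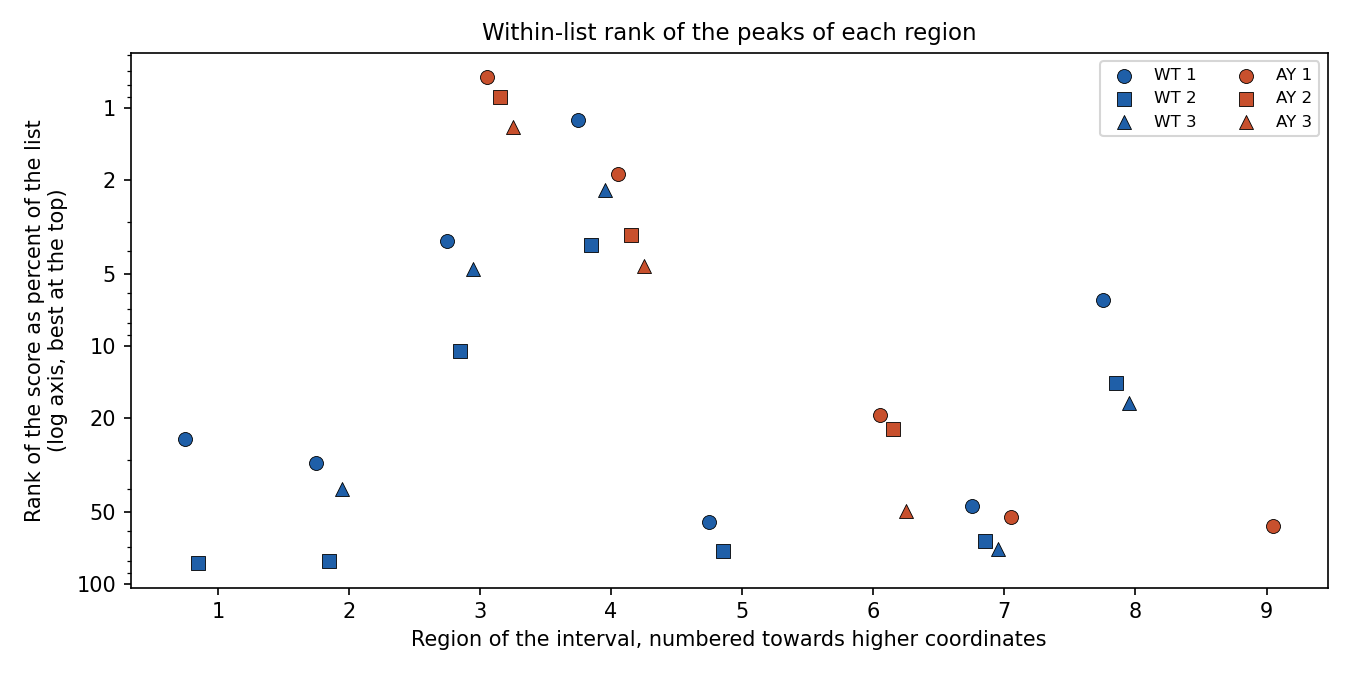
Rank of the score in percent of the list (log axis, best at the top) for each region of the interval, with WT libraries in blue and AY libraries in orange and 1 symbol per replicate number. Regions 3 and 4 are the only regions with points of all 6 libraries, and region 8 (WT) and region 6 (AY) come next in their genotype.

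Region 3 had the stronger relative rank in AY. Its peaks stood at 3.62%, 10.5% and 4.76% of the WT lists, compared with 0.743%, 0.902% and 1.20% of the AY lists, so that every AY library lay above every WT library. The WT mean was 6.30% ± 3.71, the AY mean 0.947% ± 0.230 (SD, n = 3), a difference of -5.36 percentage points (exact permutation p = 0.1, two-sided; 0.25 after Benjamini-Hochberg adjustment over the 10 tests). Of the 202 regions held by all 6 libraries, 20.8% likewise had every AY library ranked above every WT library, so this separation is not rare among them. The difference was -3.24 percentage points without WT replicate 2 and -11.3 with a score of at least 100. That score leaves the ranks at region 3 unchanged, and the larger value reflects the shorter lists.

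Whether region 4 separated the genotypes depended on the form of the rank. By rank in the list, printed above, every WT library was ahead of every AY library, as at 37.1% of the 202 regions held by all 6 libraries. As percent of the list, its peaks stood at 1.12%, 3.75% and 2.22% of the WT lists, compared with 1.90%, 3.40% and 4.60% of the AY lists, and these values overlap. The WT mean of 2.36% ± 1.32 and the AY mean of 3.30% ± 1.35 (SD, n = 3) were 0.938 percentage points apart, a gap smaller than 1 SD of the libraries of WT or of AY (exact permutation p = 0.5, adjusted 0.625). Taking the same number of top peaks from every list only rescales the rank in the list. The difference of 2.30 percentage points found that way (exact permutation p = 0.1, n = 3) thus restates the separation by rank. With a score of at least 100 the difference was 1.95, the ranks being unchanged and the lists shorter. It was 1.64 without AY replicate 1, 1.63 without WT replicate 2, 0.317 without WT replicate 1 and 0.288 without AY replicate 3.

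The order of regions 3 and 4 was opposite in the genotypes. In each WT list the peak at region 4 outranked that at region 3, and in each AY list the peak at region 3 outranked that at region 4. The relative rank of region 3 minus that of region 4 was 2.49, 6.78 and 2.54 percentage points in the WT lists but -1.16, -2.50 and -3.41 in the AY lists. The WT mean gap was 3.94 ± 2.46 and that of AY -2.36 ± 1.13 (SD, n = 3). Their difference was -6.29 percentage points (exact permutation p = 0.1, two-sided, adjusted 0.25). With a score of at least 100 it was -13.2, since the ranks stay the same and shorter lists raise the percentages. The gap compares peaks within a library, so the length of a list cannot set its sign. It was added after the ranks had been seen. Opposite signs in 3 against 3 libraries fix the exact permutation p at 0.1, so that p lends no support. Of 19 neighbouring pairs of regions held by all 6 libraries and at most 50 kb apart, 2 (10.5%) had opposite orders of this kind, the pair here included, and 12 had the same order in all 6 libraries.

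**Figure D3:**
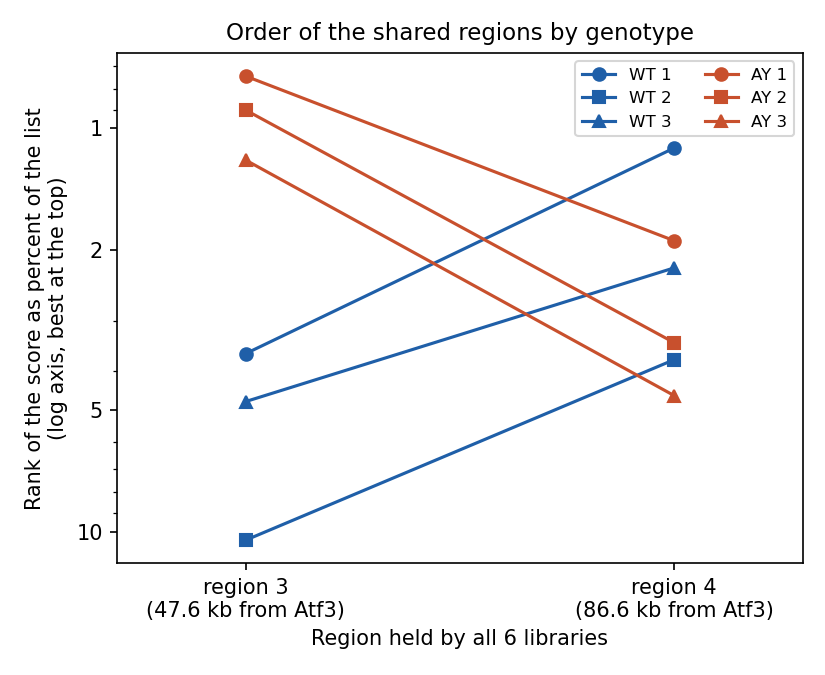
Relative rank (percent of the list, log axis, best at the top) of regions 3 and 4, with a line per library, WT in blue and AY in orange. Every WT line rises from region 3 to region 4 and every AY line falls, from 0.743%, 0.902% and 1.20% to 1.90%, 3.40% and 4.60%.

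The genotypes overlapped in the width of the peaks at both shared regions, and their centres did not overlap at region 3. Peaks at region 3 were 1014, 914 and 871 bp wide in the WT lists against 919, 978 and 822 bp in the AY lists. The AY mean of 906 ± 78.8 bp was within the spread of the WT mean of 933 ± 73.4 bp (SD, n = 3; exact permutation p = 0.8). Peaks at region 4 were 1092, 836 and 682 bp wide in WT against 1257, 1039 and 729 bp in AY, and these overlapped as well (difference 138 bp, exact permutation p = 0.6, n = 3). Without AY replicate 1 or WT replicate 3 that difference was 14.0 or 44.3 bp, and without AY replicate 3 or WT replicate 1 it was 278 or 249 bp. At region 3 every AY centre lay at a higher coordinate than every WT centre, by 45.7 bp on average (SD 18.5 bp in WT and 15.3 bp in AY, n = 3; exact permutation p = 0.1, adjusted 0.25). Centres of the genotypes were separated, in either direction, at 15.8% of the 202 regions held by all 6 libraries, whose median absolute difference was 23.3 bp. At region 4 the centres overlapped, with a difference of -31.8 bp (exact permutation p = 0.4, n = 3), which was -8.67 bp without WT replicate 2, -17.2 bp without AY replicate 1 and -54.2 bp without WT replicate 3. The lists give no summit, so a centre is the midpoint between the called ends.

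**Figure D4:**
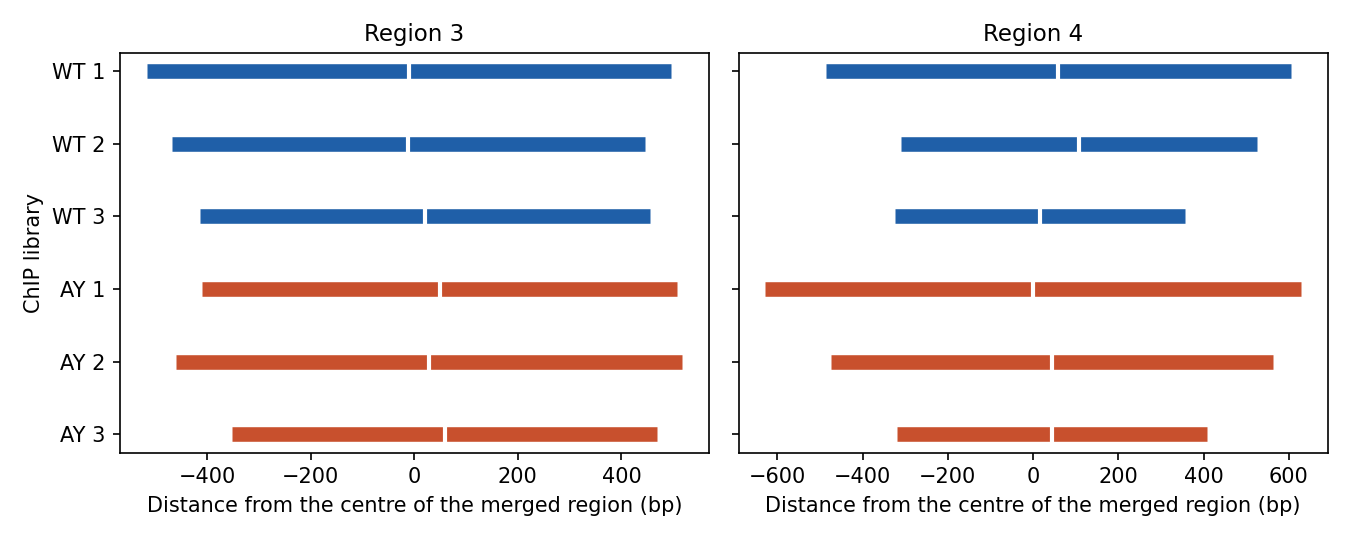
Called extent of the peak of each library (bars, WT in blue and AY in orange) at regions 3 and 4, in bp from the centre of the merged region, with a white tick at the midpoint. At region 3 all AY midpoints lie to the right of all WT midpoints, and at region 4 they overlap.

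Regions 2 and 8 were held by all 3 WT and by no AY library. Region 8, chr1:193703876-193704722, was the third-ranked of the interval in each WT list, at ranks 103, 118 and 267 and scores of 485.78, 237.86 and 184.71. All of these scores lie well above the lowest listed score of 50, and no AY list had a peak there. It stood at place 26 of the 216 WT-restricted regions of the genome, with a mean relative rank of 12.7% against a median of 37.6%. Region 2, chr1:193049140-193049855, was weaker, with ranks of 495, 660 and 613 and a mean of 50.3%, at place 150 of 216. Its score in WT replicate 2, 56.97, was just above the lowest listed. Region 2 lay 4.19 kb from region 3, which all 6 libraries held. It was 1 of 2 WT-restricted regions in the genome within 5 kb of such a region (0.926% of the 216). Of the 389 AY-restricted regions, 6 (1.54%) lay as close to such a region. The bound of 5 kb was not planned and lies just above the gap at region 2, so these shares depend on it. WT-restricted regions are 5.21% of all merged regions. With a score of at least 100, region 8 alone of the pair met the rule, and without WT replicate 3, 4 regions of the interval did.

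Region 6 was held by all 3 AY and by no WT library. It lies at chr1:193484714-193485579, in the wide stretch between region 5 and region 7, with no other peak of any library within 200 kb. It held ranks 417, 323 and 536, with scores of 263.25, 208.25 and 89.80, and was the third-ranked of the interval in each AY list. Its peak was 866 and 696 bp wide in AY replicates 1 and 2 and 348 bp wide in AY replicate 3, which had the lowest score and the shortest AY list. It stood at place 156 of 389 AY-restricted regions, with a mean relative rank of 30.4% where the median was 35.2%. AY-restricted regions are 9.38% of all merged regions. With a score of at least 100, AY replicate 3 dropped out and no region of the interval was AY-restricted.

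The other 4 regions were found in part of the libraries of a genotype. Region 7, chr1:193699483-193700110, was held by the 3 WT libraries at ranks 756, 545 and 1088 and by AY replicate 1, the longest list, at rank 1124. Region 7 thus differed from region 8, 3.77 kb away, in being weaker in every WT list and present in an AY list. Region 1, chr1:193021474-193022133, the nearest to Atf3, was held by WT replicates 1 and 2 at ranks 396 and 676. Region 5, chr1:193105104-193105605, was held by the same libraries at ranks 877 and 598. WT replicate 3 had neither, although its list was longer than that of WT replicate 2. Region 9, chr1:193904882-193905557, was found in AY replicate 1 alone, at rank 1227 of 2154 and a score of 101.57. Regions held by 1 library are 49.4% of all merged regions.

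Over all peaks of the interval in a library, the best relative rank was that of region 4 in WT and that of region 3 in AY. As percent of the list these values overlapped, with a difference of -1.42 percentage points (exact permutation p = 0.2, n = 3, adjusted 0.333). By rank in the list they did not overlap. The same number of top peaks from every list only rescales these ranks. Its difference of -1.65 (exact permutation p = 0.1, n = 3) thus restates that separation. Without WT replicate 2 the difference in percent of the list was -0.723. It was -3.05 with a score of at least 100, the ranks being unchanged and the lists shorter. The median relative rank was 24.7%, 66.0% and 17.4% in WT against 19.4%, 3.40% and 4.60% in AY, which also overlapped (difference -26.9 percentage points, exact permutation p = 0.2, adjusted 0.333). This difference was -11.9 without WT replicate 2 and -15.1 with a score of at least 100. With the same number of top peaks from every list it was -33.3 and the groups were separate (exact permutation p = 0.1, n = 3). The median peak width was 671, 461 and 682 bp in WT against 866, 978 and 729 bp in AY. The widths did not overlap, and their difference was 253 bp (means 605 ± 125 and 858 ± 125 bp, SD, n = 3; exact permutation p = 0.1, adjusted 0.25). With a score of at least 100 the difference was 136 bp and the widths overlapped (exact permutation p = 0.2, n = 3). Over the whole lists the median width was 551 ± 44.5 bp for WT, 586 ± 74.5 bp for AY (SD, n = 3). Both medians of the interval depend on which peaks a library held there, and so do not compare the same sites. In AY replicates 2 and 3, with 3 peaks each, the median relative rank was that of region 4. At regions 3 and 4, held by all 6 libraries, the widths of the genotypes overlapped. How often other windows separate the genotypes in these measures is not given here.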

How the data were processed

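Nrf2 ChIP-seq peak lists of 6 macrophage libraries were used; the 6 input libraries were not analysed here. MACS 1.4, Bowtie2 and bcl2fastq 2.15.0 are named, with build mm9, per the submitters' processing notes. Not given in the sources used here: settings, treatment of duplicates and any use of the inputs. A list of 5 columns was deposited for each library, the last column being the authors' score, read as -10 log10 of the p-value. Peaks overlapping by at least 1 bp were merged into regions, and a library held a region if a peak of it lay there. A region was WT-restricted if held by all 3 WT and no AY library, and AY-restricted in the reverse case. Scores were ranked within each list. Differences between genotypes were tested with exact permutation tests (scipy 1.17.1, Python 3.11.15), and the merging was tested on simulated data. The interval, members and motifs were chosen with earlier results of these data known. The named regions follow a rule that takes those in 3 or more libraries, those nearest to Atf3, and the best-ranked and widest; regions 5 and 9 were added so that all 9 are given. Coordinates count from 1. Gene order and promoters are from RefSeq (GRCm38.p6), and both genes matched by symbol. The alternatives were a score of at least 100, the 826 top peaks of each list, other merging rules, a replicate block, libraries left out, and other bounds and denominators of the share.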

Additional observations from a re-analysis of the deposited data

Results flagged for a closer look

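The order of regions 3 and 4 was picked out because every WT library moved one way and every AY library the opposite way. The relative rank of region 3 minus that of region 4 was above 0 in 3 of 3 WT and below 0 in 3 of 3 AY libraries. The genotypes differed by -6.29 percentage points (exact permutation p = 0.1, n = 3, the smallest possible). Picking the order for this separation fixed that p in advance, so it lends no support. No group held more than 3 ChIP libraries, so single libraries were not tested for standing apart.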

How the results depend on the processing

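Read depth is unknown and limits every absence of a peak. With a score of at least 100, 1 region of the interval was WT-restricted, 0 were AY-restricted and 3 were held by 1 library, in place of 2, 1 and 1. Without both libraries numbered 3, 4 regions were WT-restricted. When libraries were left out 1 at a time, WT-restricted regions numbered 2 to 4 (4 without WT replicate 3) and regions held by 1 library 0 to 3; the rules are looser with 5 libraries. The difference in width at region 3, -26.7 bp, turned to 13.8 bp without WT replicate 1 and to 15.5 bp without AY replicate 3, in a range of -62.5 to 15.5 bp. Leaving out a library kept the difference in relative rank at region 3 between -6.70 and -3.24 percentage points. The difference in the rank gap of regions 3 and 4 stayed between -7.02 and -4.87. With a score of at least 100 they were -11.3 and -13.2, from unchanged ranks in shorter lists. With the same number of top peaks from every list, the median relative ranks became separate between genotypes. The relative rank at region 4 and the best relative rank did so too, but there the setting only rescales the rank in the list. With a score of at least 100 the median widths came to overlap, as given above. No p can pass 0.05 in any setting with 3 libraries a genotype. With the replicate number as a block, the difference in median width was 253 bp (exact sign-flip p = 0.25, the smallest possible). The differences in best and median relative rank were -1.42 and -26.9 percentage points with that block. Each had the same smallest exact sign-flip p of 0.25. The block was not applied to the rank gap of regions 3 and 4. The main tests did not treat equal numbers as pairs. Presence at 1897 regions held by 2 to 5 libraries gave WT-AY correlations of 0.0961, 0.0861 and 0.195 for numbers 1, 2 and 3. Unequal numbers gave -0.161 to 0.064. Among libraries of the other genotype, each thus correlated best with the same-numbered one. This hints at pairing from the data alone, but the correlations are small and pairing was not tested. Results on the widths, centres and order of regions 3 and 4 were added after the data were seen.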
